A study of Mus musculus with 3 samples.

Results

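Scn8a, Scn3a, Scn1a, Scn9a, Scn7a, Scn10a, Scn11a and Scn4a encode alpha subunits of the voltage-gated sodium channel family, and their chromatin was examined in 3 single-cell ATAC-seq libraries of mouse whole brain. The genes were taken from a list of names, drawn up with earlier results of these data known. Peaks, the regions that the authors listed as accessible, were counted over each gene span with 5 kb on each side in mm10, and the 4 genes on chromosome 2 were also taken as one locus. They are 8 of the 21627 protein-coding genes on chromosomes 1 to 19 and X.

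Each library was made from nuclei of whole brain of C57BL6 mice, tagmented by barcoded Tn5 transposase in 96 wells, then pooled and spread over a chip of 5184 nanowells for indexed PCR. The sciATACv3 library listed 512023 peaks, the sciATACv2 library 850991 and the sciATACv1 library 622754, named v3, v2 and v1 below. The lists also differ in form, with a median peak width of 726 bp in v3 and 500 bp in v2 and v1, and 42.2%, 53.1% and 59.8% of peaks in v3, v2 and v1 at 500 bp. The labels leave out how the versions differ and the number, sex and age of the mice. With 1 library per version nothing could be tested between versions, and all intervals are 95% intervals for counting error only. The lists hold positions without heights or reads, sequencing depth is unknown, and whole tissue mixes all brain cell types, so a wider accessible area in 1 cell type and accessibility in more cell types cannot be told apart.

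Voltage-gated sodium channels open on depolarisation and carry the inward current that starts and propagates the action potential. The alpha subunit forms the pore, the voltage sensors and the inactivation gate in a single polypeptide, while beta subunits and cytoplasmic partners adjust gating and place the channel in the axon. The family members divide the body between them. Scn8a, Scn1a and Scn3a act in the central nervous system, Scn9a, Scn10a and Scn11a are best known from peripheral sensory neurons, and Scn4a is the channel of skeletal muscle. Scn7a encodes an atypical relative that senses extracellular sodium rather than voltage. ATAC-seq reads how open the DNA of a gene is, not how much of the gene is transcribed.

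On mm10 the spans of Scn3a (chr2:65457118-65567591), Scn1a (chr2:66270781-66440837), Scn9a (chr2:66480080-66635114) and Scn7a (chr2:66673426-66784910) lie on chromosome 2. Scn10a (chr9:119608456-119719322) and Scn11a (chr9:119753763-119825456) are neighbours on chromosome 9. Scn8a (chr15:100869863-101045938) and Scn4a (chr11:106317545-106365559) lie on chromosomes of their own. The tables used give no exons, so peaks inside a span were not divided into exonic and intronic ones.

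Of the 8 genes, Scn8a and Scn3a had the largest covered shares in every library, and Scn1a came next in v3 and v1. Scn8a, the main channel of nodes of Ranvier and axon initial segments in the adult, had 79 peaks in v3, 118 in v2 and 111 in v1, which covered 48.3%, 54.95% and 46.1% of its window. Scn3a, a channel of the embryonic and early postnatal brain, had 41, 79 and 65 peaks in v3, v2 and v1, with 42.0%, 53.0% and 39.95% of the window covered. Scn1a, prominent in fast-spiking inhibitory neurons, had 65 peaks in v3, 96 in v2 and 90 in v1, and 34.2%, 41.8% and 37.45% of its window was covered. Over all protein-coding genes the median covered share was 27.85% in v3, 35.8% in v2 and 23.5% in v1, so these 3 genes lay above the median in every library.

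Long genes carry more accessible chromatin than short ones, and these windows are long, at 186 kb for Scn8a, 180 kb for Scn1a and 120 kb for Scn3a. Among the 2756 protein-coding genes with windows of at least 100 kb, the median covered share was 34.9% in v3, 44.5% in v2 and 31.5% in v1. Scn8a and Scn3a lay above these medians in all libraries. Scn1a lay above it in v1 alone, at 34.2% against 34.9% in v3 and 41.8% against 44.5% in v2.

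Scn10a, Scn11a and Scn7a held sparse peaks in every library. Scn10a, a tetrodotoxin-resistant channel of nociceptors, had 19 peaks in v3, 23 in v2 and 12 in v1, covering 11.99%, 13.5% and 5.85% of its window of 121 kb. Scn11a, the other tetrodotoxin-resistant channel of nociceptors, had 8, 13 and 10 peaks in v3, v2 and v1, covering 9.41%, 14.99% and 7.25% of 81.7 kb. Scn7a had 9 peaks in v3, 23 in v2 and 16 in v1, and 6.62%, 12.9% and 9.44% of its window was covered. All 3 genes lay under the medians of protein-coding genes in every library.

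The place of Scn9a and Scn4a among the 8 genes depended on the library. Scn9a, the channel of sensory and sympathetic neurons whose loss abolishes pain in humans, had 20 peaks in v3, 65 in v2 and 51 in v1, covering 11.9%, 27.4% and 21.5% of its window. Scn4a had 11 peaks in v3, 30 in v2 and 13 in v1, covering 20.8%, 43.6% and 18.1% of a window of 58.0 kb. In v3 Scn9a was among the sparse genes, just under Scn10a at 11.99%. By covered share Scn4a ranked behind Scn8a, Scn3a and Scn1a in v3, above Scn1a in v2, and below Scn9a in v1.

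**Figure D1:**
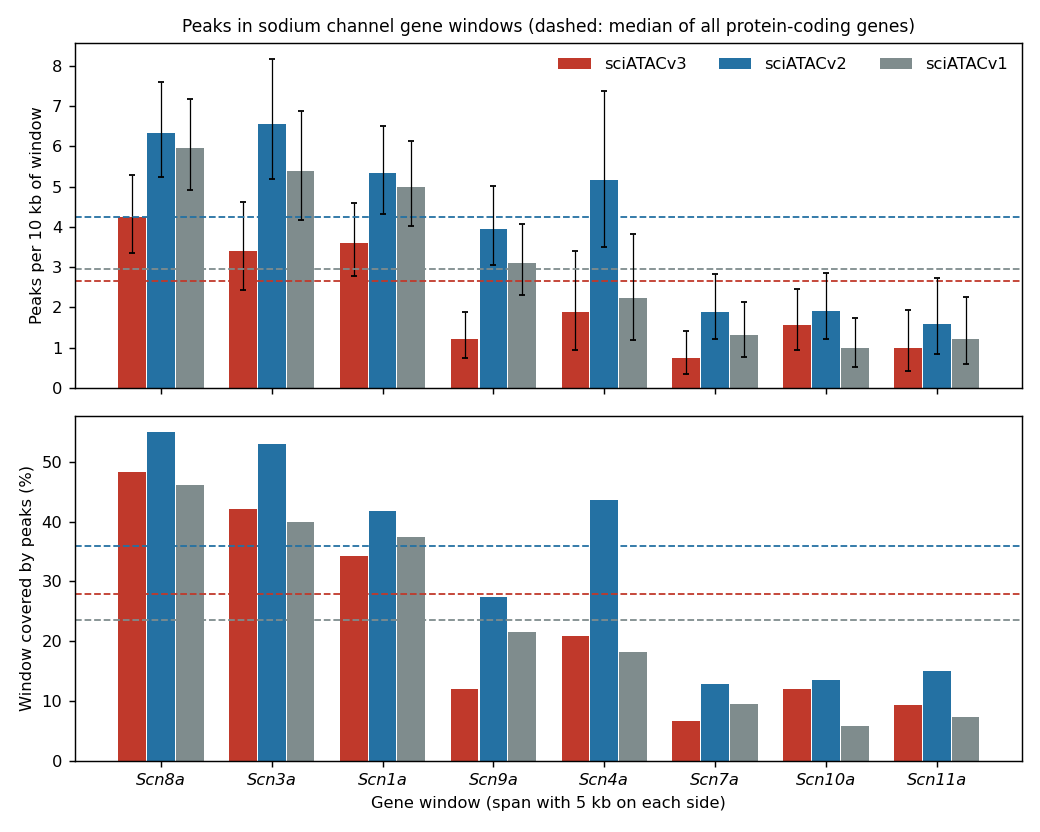
Bars give peaks per 10 kb of window (upper panel, black lines are exact Poisson 95% intervals) and the percentage of the window covered by peaks (lower panel) for each gene in the v3, v2 and v1 libraries. Dashed lines are the medians of all protein-coding genes, and Scn8a, Scn3a and Scn1a lie above them in all 3 libraries, while Scn7a, Scn10a and Scn11a lie below.

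Per length, neighbours in this order were often within counting error. Scn8a held 4.25 peaks per 10 kb in v3 (3.36 to 5.29), 6.34 in v2 (5.25 to 7.59) and 5.97 in v1 (4.91 to 7.18), and its intervals overlapped those of Scn3a and Scn1a in each library. Scn1a, at 3.61 peaks per 10 kb in v3 (2.79 to 4.60), was clear of Scn9a at 1.21 (0.740 to 1.87). In v2 and v1 the intervals of Scn1a and Scn9a overlapped, 4.32 to 6.51 against 3.04 to 5.02 in v2 and 4.02 to 6.14 against 2.30 to 4.06 in v1. Scn10a, Scn11a and Scn7a, at 0.741 to 1.90 peaks per 10 kb, overlapped one another in each library.

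**Figure D2:**
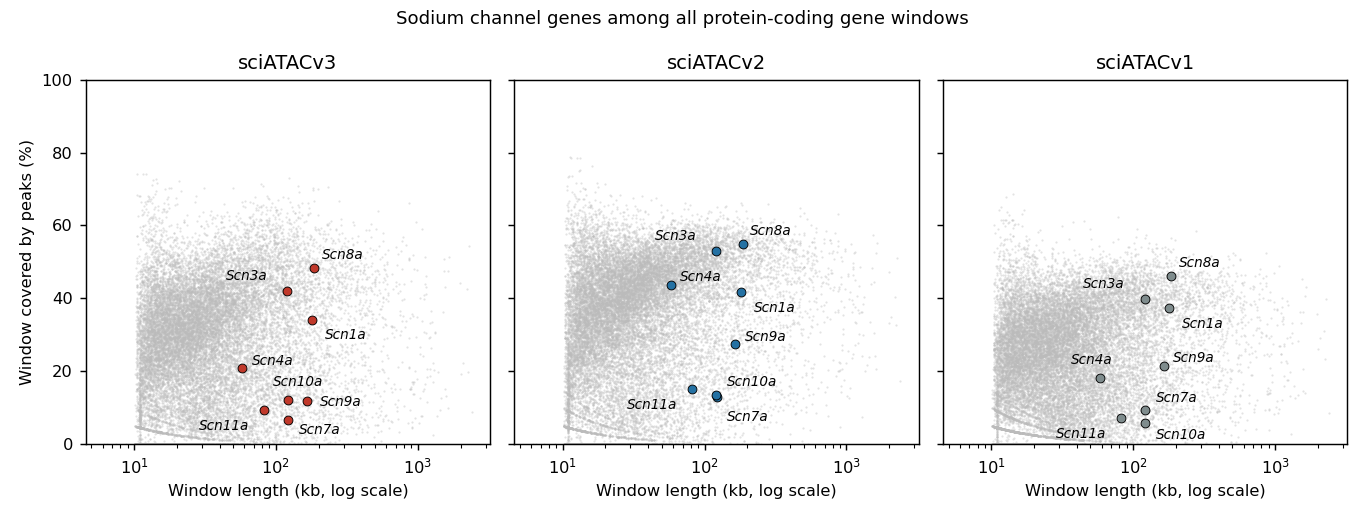
Each grey point is 1 of the 21627 protein-coding gene windows, placed by window length in kb (log scale) and the percentage covered by peaks, with 1 panel each for v3, v2 and v1. Coloured points are the sodium channel genes: Scn8a reaches 48.3%, 54.95% and 46.1% in v3, v2 and v1, and Scn7a, of 121.5 kb, stays at 6.62%, 12.9% and 9.44%.

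Gene starts were read apart from gene bodies. RefSeq start windows, which run from 250 bases before to 50 after an annotated start on GRCm38.p6, were on hand for 7 of the 8 genes, all but Scn3a. A peak overlapped a start window of 4 of these 7 genes in v3, 5 in v2 and 5 in v1, and of 4 in all 3 libraries. Over the 17273 protein-coding genes with such a window, the share with a peak was 72.5% in v3, 77.6% in v2, 72.3% in v1 and 69.7% in all 3 libraries. With 7 genes, counts of 4 and 5 are near these shares. The genes with a start peak in every library were Scn8a, Scn1a, Scn9a and Scn7a.

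The start windows of 6 genes are printed with each CG dinucleotide in capitals, because windows with more CG had start peaks more often over all genes. The first 3 had a peak in all libraries, and Scn10a, Scn11a and Scn4a had one in 0, 1 and 1 library. All are RefSeq sequences of GRCm38.p6, written 5′ to 3′ on the gene's strand.
Scn8a (chr15:100870395-100870694, plus strand): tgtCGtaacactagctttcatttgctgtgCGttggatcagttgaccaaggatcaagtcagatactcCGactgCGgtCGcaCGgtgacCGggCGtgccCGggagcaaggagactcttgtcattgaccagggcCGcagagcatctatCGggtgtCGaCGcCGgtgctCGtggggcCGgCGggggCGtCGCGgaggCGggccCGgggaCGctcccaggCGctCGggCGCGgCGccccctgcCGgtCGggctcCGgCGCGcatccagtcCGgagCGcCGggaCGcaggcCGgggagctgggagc
Scn1a (chr2:66440788-66441087, minus strand): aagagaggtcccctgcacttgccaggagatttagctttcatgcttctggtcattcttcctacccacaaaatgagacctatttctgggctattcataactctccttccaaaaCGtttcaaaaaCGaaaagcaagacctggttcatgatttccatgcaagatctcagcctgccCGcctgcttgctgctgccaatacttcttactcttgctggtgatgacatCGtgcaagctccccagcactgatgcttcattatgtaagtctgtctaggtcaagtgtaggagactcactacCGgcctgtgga
Scn7a (chr2:66784861-66785160, minus strand): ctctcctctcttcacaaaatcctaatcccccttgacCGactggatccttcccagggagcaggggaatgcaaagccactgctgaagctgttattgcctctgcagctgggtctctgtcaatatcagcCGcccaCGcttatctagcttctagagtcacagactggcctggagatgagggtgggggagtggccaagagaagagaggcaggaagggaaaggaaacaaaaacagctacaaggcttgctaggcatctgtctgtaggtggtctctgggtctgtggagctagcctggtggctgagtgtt
Scn10a (chr9:119718983-119719282, minus strand): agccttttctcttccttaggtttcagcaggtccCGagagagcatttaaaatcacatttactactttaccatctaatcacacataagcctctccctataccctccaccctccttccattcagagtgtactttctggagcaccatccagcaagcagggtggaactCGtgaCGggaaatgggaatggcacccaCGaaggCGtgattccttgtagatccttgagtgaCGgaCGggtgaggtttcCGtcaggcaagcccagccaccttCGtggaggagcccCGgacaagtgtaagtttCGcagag
Scn11a (chr9:119825407-119825706, minus strand): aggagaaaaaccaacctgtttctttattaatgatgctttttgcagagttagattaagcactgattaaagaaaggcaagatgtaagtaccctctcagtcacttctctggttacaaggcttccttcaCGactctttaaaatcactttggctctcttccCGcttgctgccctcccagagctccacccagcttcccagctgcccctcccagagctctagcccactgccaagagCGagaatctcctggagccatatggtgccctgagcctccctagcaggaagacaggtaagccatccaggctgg
Scn4a (chr11:106349341-106349640, minus strand): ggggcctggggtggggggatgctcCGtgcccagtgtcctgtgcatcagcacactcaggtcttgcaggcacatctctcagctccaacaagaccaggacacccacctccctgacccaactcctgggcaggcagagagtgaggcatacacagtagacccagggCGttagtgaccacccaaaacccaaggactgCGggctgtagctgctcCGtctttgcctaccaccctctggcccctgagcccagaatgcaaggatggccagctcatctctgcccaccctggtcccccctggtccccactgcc

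Scn8a, with 38 CG dinucleotides and 70% G and C, is a CpG island type of start. Peaks of 3011 bp in v3, 2967 bp in v2 and 3026 bp in v1 lay over it. Its other RefSeq start window, downstream at chr15:100936021-100936320, holds 12 CG and was overlapped by a peak of 3684 bp in v3, 870 bp in v2 and 500 bp in v1. The v3 peak there was the widest of that library in the gene.

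Start windows of 3 chromosome 2 genes lay under peaks in every library. The Scn1a window, with 5 CG, lay under peaks of 1001 bp in v3, 1799 bp in v2 and 2687 bp in v1. The Scn7a window, with 3 CG, lay under peaks of 1465 bp in v3, 1233 bp in v2 and 1731 bp in v1. The Scn9a window (chr2:66634913-66635212), with 9 CG, lay under peaks of 1352, 1854 and 1862 bp in v3, v2 and v1. The lncRNA gene Gm13629 overlaps the Scn1a start window, and the lncRNA gene Gm35265 overlaps that of Scn9a. The start peaks of Scn1a and Scn9a therefore cannot be assigned to these channel genes alone. Among the 6676 windows of protein-coding genes with up to 5 CG, the class of Scn1a and Scn7a, 24.6% had a peak in all 3 libraries. The share was 76.9% of the 4852 windows with 6 to 15 CG, the class of Scn9a, and 98.0% of the 9516 windows with over 15.

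Scn10a had no start peak. Its window holds 11 CG, and no library had a peak over it or within 1 kb of either end of the gene. The nearest peak lay 4950 bases away in v3, 5023 in v2 and 6125 in v1. Of the windows with 6 to 15 CG, 9.56% had a peak in no library.

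Scn11a, with 3 CG, had a start peak in v1 alone, of the minimum width of 500 bp, and the nearest peak lay 863 bases from the window in v3 and 8890 in v2. Scn4a, with 4 CG, had a peak over its start window in v2 alone, 1824 bp wide, and the nearest peaks were 1571 bases away in v3 and 1640 in v1. The Scn4a span reaches further upstream than this window. Within 1 kb of that higher-coordinate end all libraries had a peak, the widest of 1207 bp in v3, 2576 bp in v2 and 2199 bp in v1. A lncRNA gene, LOC108167929, begins next to that end of the span, so these peaks cannot be assigned to Scn4a alone.

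Scn3a was read at the ends of its span instead. Within 1 kb of the higher-coordinate end (chromosome 2, 65567591) the widest peak was 1933 bp in v3, 3210 bp in v2 and 2540 bp in v1. The lncRNA gene Gm34833 covers that end and 18.8 kb of the window, where v3 had 7 peaks, v2 had 12 and v1 had 9. Those peaks cannot be assigned to Scn3a alone. Within 1 kb of the lower-coordinate end it was 2061 bp in v3 and 500 bp in v2 and v1.

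The 8 start windows of the 7 genes were searched on both strands for 5 short motifs, of which no pair shares a window here. Scn1a holds CCAAT, present in 38.5% of the 21044 windows of protein-coding genes. Scn7a holds GGGCGG, present in 46.7%. No member window holds TATAAA (12.7% of all windows do), the cyclic AMP response element letters TGACGTCA (2.26%) or the letters TGCGCA (9.74%). A match is a run of letters and not a measured binding site.

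**Figure D3:**
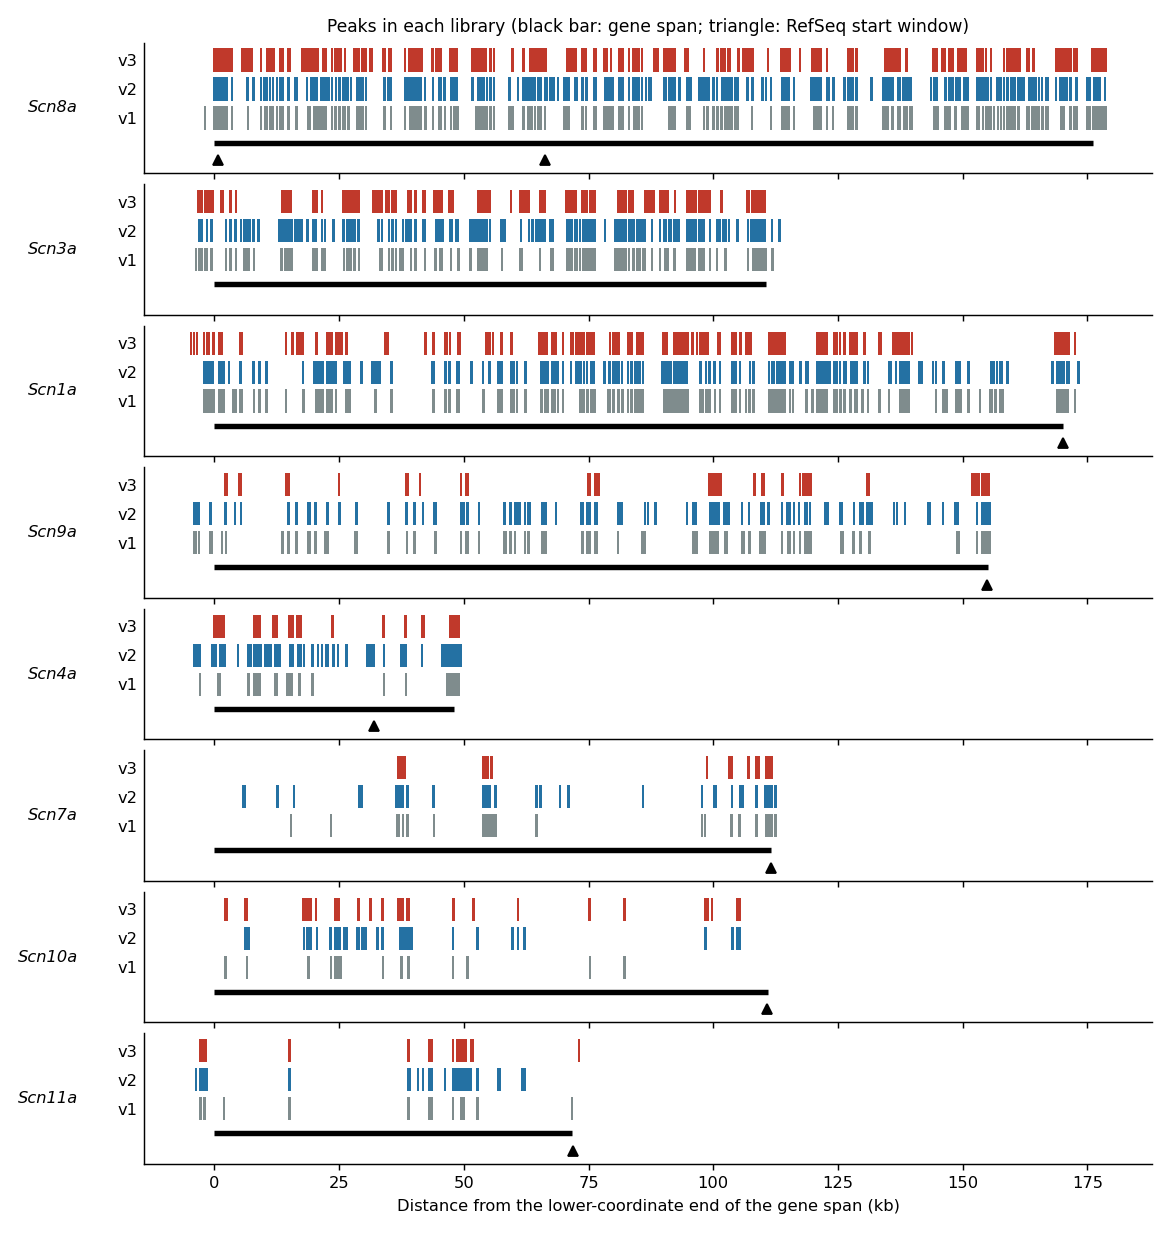
Coloured blocks are the peaks of the v3, v2 and v1 libraries (rows from top to bottom in each panel) along each gene, drawn to scale in kb from the lower-coordinate end of the gene span, with the span in black and RefSeq start windows as triangles. In Scn8a no stretch over 3.48 kb lacks a peak in all libraries, while Scn11a has a stretch of 23.3 kb without a peak in any library.

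Bare stretches differed in length between the genes. The longest stretch without a peak in any library was 3.48 kb in Scn8a, 3.72 kb in Scn3a and 8.38 kb in Scn1a. It was 3.59 kb in Scn4a, 7.80 kb in Scn9a, 14.4 kb in Scn7a, 15.8 kb in Scn10a and 23.3 kb in Scn11a. With each span cut into 3 equal parts, the first, middle and last part of Scn8a were covered to 56.4%, 46.5% and 44.96% in v3, 55.03%, 57.9% and 57.2% in v2, and 49.3%, 42.3% and 48.6% in v1. The lncRNA gene Gm52176 covers 17.3 kb inside Scn8a, where v3 had 9 peaks, v2 had 9 and v1 had 13. Those peaks cannot be assigned to Scn8a alone.

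Scn1a was most accessible in its middle. The middle part was covered to 48.95% in v3, 52.55% in v2 and 50.4% in v1, and the last part to 25.2%, 31.1% and 25.45%. The first part, which holds the annotated start, differed more between libraries, at 25.1% in v3, 41.8% in v2 and 36.1% in v1. It held 2 adjacent bins of 10 kb without a peak in v3. The lncRNA gene Gm13630 covers 8.92 kb inside this part, where v3 had 0 peaks, v2 had 6 and v1 had 5. Those peaks cannot be assigned to Scn1a alone. The widest Scn1a peak of v3 (chr2:66381714-66385394, 3681 bp) and of v1 (chr2:66381736-66385360, 3625 bp) lay at the same place in the gene body. The widest stretch of merged peaks with all 3 libraries in it spanned 5595 bp at chr2:66360241-66365835.

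In Scn10a coverage was highest toward the end of the gene. Its last part was covered to 19.9% in v3, 25.5% in v2 and 11.01% in v1, and its first part to 9.09%, 5.02% and 2.71%. Scn11a held its widest peaks inside the gene, near chr9:119801367-119804469, of 2227 bp in v3, 2024 bp in v2 and 1032 bp in v1. Its last part was nearly bare, at 2.09% in v3, 2.09% in v2 and 4.18% in v1. In Scn7a the barest part was also the last, with 1.38% covered in v3, 9.655% in v2 and 4.88% in v1. Scn4a was covered most in its last part, to 38.4% in v3, 58.3% in v2 and 30.1% in v1. Its window also reaches 2.02 kb into Cd79b, a B cell receptor gene, where v3 had 0 peaks, v2 had 2 and v1 had 1.

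On chromosome 2 the 4 windows, taken as one locus of 587 kb, held 135 peaks in v3, 263 in v2 and 222 in v1, and 23.8%, 34.1% and 27.7% of their length was covered. Scn1a, Scn9a and Scn7a follow one another there with under 40 kb between neighbours, and coverage was lower at each step along the row in every library. The 39.2 kb between Scn1a and Scn9a held 6 peaks in v3, 19 in v2 and 17 in v1, and the 38.3 kb between Scn9a and Scn7a held 3, 8 and 7, stretches that were looked at after the profile had been seen. In bins of 10 kb from the Scn1a window to the Scn7a window, 16 of 53 bins held no peak in v3, against 2 in v2 and 5 in v1. Of the 16 bare v3 bins, 7 lay in Scn7a, 4 in Scn9a, 2 in Scn1a and 3 outside the 3 genes. How often such bins are bare elsewhere was not counted. The v3 library lists the fewest peaks, but these cover 489.8 Mb in all, against 668.7 Mb in v2 and 453.7 Mb in v1. The lncRNA gene Gm13629 covers 72.4 kb of the Scn9a window, where v3 had 8 peaks, v2 had 29 and v1 had 26, so those peaks cannot be assigned to Scn9a alone.

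**Figure D4:**
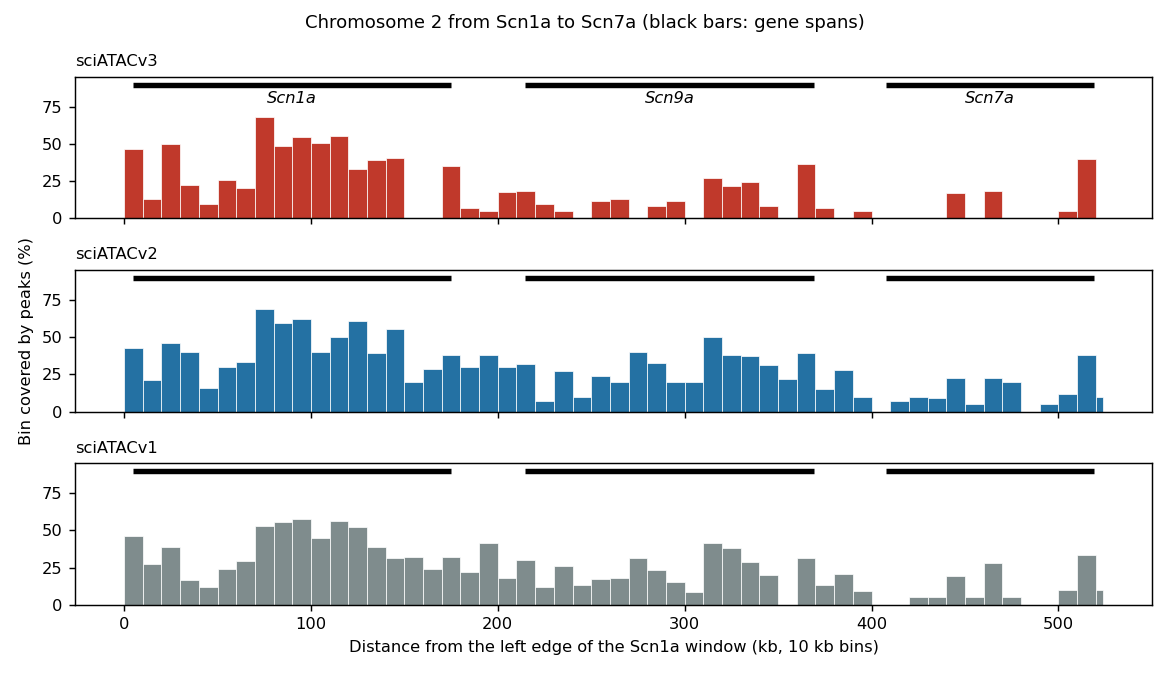
Bars give the percentage of each 10 kb bin covered by peaks in v3, v2 and v1 along chromosome 2, by distance in kb from the left edge of the Scn1a window, with gene spans in black. Coverage peaks inside Scn1a at 68.0% in v3, 68.7% in v2 and 57.9% in v1, and 16 of the 53 bins are bare in v3, against 2 in v2 and 5 in v1. Bare bins elsewhere were not counted.

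To set the libraries side by side despite their different totals, the peaks of a gene were taken as a share of all peaks of the library, and a gene was called where 2 shares differed by 1.5-fold or more. All 8 genes had the 30 peaks over the 3 libraries asked for, like 9710 protein-coding genes in all, and no member was lost to this minimum. Between v3 and v2, 0 of 8 genes were higher in v3, where 11.9% of all genes were, and 3 were lower, where 6.23% of all genes were. The 3 lower genes were Scn9a, Scn4a and Scn7a. Between v3 and v1, 1 gene was higher in v3 (11.3% of all genes) and 1 was lower (4.94%). Between v2 and v1, 1 gene was higher in v2 (6.87% of all genes) and 0 were lower (3.26%).

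Scn9a had the lowest share ratios of the 8 genes in both comparisons with v3. With 20 peaks in v3 and 51 in v1, its share ratio of v3 over v1 was 0.477 (0.269 to 0.814), and 1.09% of the 9710 genes had a lower one. With 65 peaks in v2, its ratio of v3 over v2 was 0.511 (0.293 to 0.855), against 1.92% of genes lower. These comparisons share the v3 library, whose list held the fewest and widest peaks, and the part of that in the Scn9a values was not tested. Between v2 and v1 its ratio was 0.933 (0.636 to 1.37). The v3 over v1 ratio of Scn9a stayed between 0.451 and 0.515 under the alternative windows and measures tried, and the v3 over v2 ratio between 0.496 and 0.754, the highest among peaks wider than 500 bp. Among those wider peaks its v2 over v1 ratio was 0.628.

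The other genes on chromosome 2 had v3 over v1 ratios under 1 as well, at 0.684 for Scn7a (0.266 to 1.64), 0.767 for Scn3a (0.506 to 1.15) and 0.878 for Scn1a (0.628 to 1.22), each with an interval that includes 1. Among peaks wider than 500 bp these v3 over v1 ratios were 1.06 for Scn7a, 1.18 for Scn3a and 1.03 for Scn1a. Over the 4 windows together, with all peaks, the v3 over v1 ratio was 0.740 (0.593 to 0.920). The ratio was 0.853 (0.688 to 1.05) for v3 over v2 and 0.867 (0.722 to 1.04) for v2 over v1. Over all 8 windows the v3 over v1 ratio was 0.833 (0.707 to 0.980). Off chromosome 2 the single-gene ratios were 0.866 for Scn8a, 0.973 for Scn11a, 1.03 for Scn4a and 1.93 for Scn10a. Scn7a had a v3 over v2 ratio of 0.650 (0.265 to 1.46), which turned to 1.12 when only peaks wider than 500 bp were used.

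Scn10a was the gene called higher in v3 than in v1, with 19 and 12 peaks and a ratio of 1.93 (0.888 to 4.35), and 1.90 to 3.101 under the alternatives. Scn4a was called higher in v2 than in v1, with 30 and 13 peaks and a ratio of 1.69 (0.855 to 3.53), and lower in v3 than in v2, with 11 and 30 peaks and a ratio of 0.609 (0.275 to 1.25). All these intervals include 1. Among peaks wider than 500 bp the Scn4a ratios were 1.08 for v2 over v1 and 0.898 for v3 over v2, within 1.5-fold. For Scn8a the ratios were 1.11 for v3 over v2 (0.826 to 1.49), 0.866 for v3 over v1 (0.640 to 1.17) and 0.778 for v2 over v1 (0.595 to 1.02).

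The median log2 share ratio of the 8 genes was -0.09 for v3 over v2, -0.20 for v3 over v1 and -0.08 for v2 over v1. Over the 9710 genes it was 0.19, 0.09 and -0.09 for the same pairs. The range over the members ran from -0.95 to 0.45 for v3 over v2, from -1.05 to 0.91 for v3 over v1 and from -0.36 to 0.74 for v2 over v1.

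**Figure D5:**
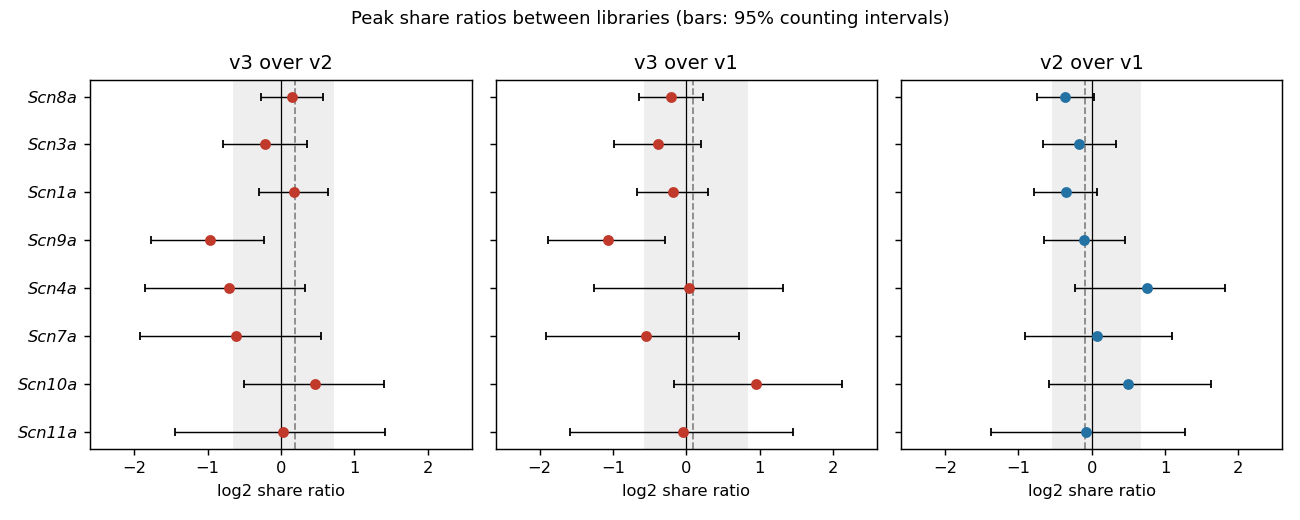
Points are log2 ratios of peak shares for each gene, v3 over v2, v3 over v1 and v2 over v1, with 95% counting intervals. The grey band spans the 5th to the 95th percentile of 9710 protein-coding genes and the dashed line is their median. Scn9a lies outside the band in both comparisons with v3, at share ratios of 0.511 and 0.477, and so does Scn4a at 0.609 for v3 over v2, all on the low side. Scn10a at 1.93 for v3 over v1 and Scn4a at 1.69 for v2 over v1 lie outside it on the high side.

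Of the 8 genes, Scn8a and Scn3a had the largest shares of peak regions found in all libraries. Merging the lists gave 415 regions in the 8 windows, of which 170 (41.0%, 36.2 to 45.9) had a peak in all 3 libraries, against 46.6% of the 490471 regions in protein-coding gene windows. In Scn8a 57 of 94 regions (60.6%, 50.02 to 70.6) had all 3 libraries, and in Scn3a 34 of 65 (52.3%, 39.5 to 64.85). In Scn1a it was 40 of 99 (40.4%, 30.7 to 50.7). The shares were 15 of 67 in Scn9a (22.4%, 13.1 to 34.2), 6 of 27 in Scn10a, 5 of 25 in Scn7a, 5 of 15 in Scn11a and 8 of 23 in Scn4a.

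The regions of Scn9a that were missing from v3 were mostly found in both other libraries. Of its 67 regions, 31 (46.3%, 34.0 to 58.9) had peaks in v2 and v1 and none in v3, against 13.15% of the regions in all protein-coding gene windows. In Scn1a these were 25 of 99, in Scn3a 12 of 65, in Scn8a 14 of 94 and in Scn7a 6 of 25. Scn4a had 10 of 23 regions in v2 alone and 0 in v3 or v1 alone. Among the 27 regions of Scn10a, 5 had peaks in v3 and v2 but not v1, and 8 were in v2 alone. Of the 490471 regions in all protein-coding gene windows, 103944 were in v2 alone, 34126 in v3 alone and 16734 in v1 alone. Another 36010 had peaks in v3 and v2 but not v1.

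The partner genes of the alpha subunits described here had a start peak in every library wherever they had a start window, as did 69.7% of all protein-coding genes with one. Scn2b and Scn4b encode beta subunits, adhesion-like proteins that bind the channel, and both had a start peak in all libraries. The Scn2b window was covered to 42.7% in v3, 44% in v2 and 31.8% in v1. The Scn4b window was covered to 37.5% in v3, 52.9% in v2 and 37.4% in v1. All 4 genes for intracellular FGFs, which bind the channel's tail, had start peaks in all libraries, but their coverage ranged from 9.95% to 49.9% in v3, 15% to 50.45% in v2 and 11.1% to 40.55% in v1, lowest in Fgf13 on the X chromosome. The initial segment scaffold genes, with Ank3 for ankyrin-G, had medians of 48.6% in v3, 58.9% in v2 and 46.1% in v1. Ank3 itself held 245 peaks in v3, 337 in v2 and 289 in v1.

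Genes for the pore subunits of voltage-gated calcium channels, close relatives of this family, spanned a narrower range of coverage, which was not tested. The 10 genes ranged from 30.8% to 50.5% covered in v3, from 35.4% to 57.9% in v2 and from 21.25% to 46.3% in v1, with medians of 40.7%, 51.5% and 39.1%. The 8 sodium channel genes ranged from 6.62% to 48.3%, 12.9% to 54.95% and 5.85% to 46.1% in the same libraries, with medians of 16.4%, 34.6% and 19.8%. Cacna1s, the calcium channel of skeletal muscle, had a start peak in v2 alone, as Scn4a and Cacna1f did, and 34.9%, 49.4% and 27.8% of its window was covered in v3, v2 and v1.

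Markers of peripheral sensory neurons, where Scn10a and Scn11a act, and of skeletal muscle, where Scn4a acts, were read beside markers of brain cells. The 3 brain neuron markers with a start window, Syt1, Rbfox3 and Tubb3, had start peaks in all libraries, as did all such markers of astrocytes (3), oligodendrocytes (2) and microglia (2). Among peripheral sensory neuron markers, 3 of 4 had a start peak in each library, near the 72.5%, 77.6% and 72.3% of all genes in v3, v2 and v1, and 2 of 4 had one in all 3 libraries. Trpv1 had none in v1, and Mrgprd had one in v1 alone. The 5 sensory neuron markers had medians of 16.8%, 27.2% and 17.5% of the window covered in v3, v2 and v1. Over all protein-coding genes these medians were 27.85%, 35.8% and 23.5%. Among skeletal muscle markers with a start window, 3 of 4 had a start peak in v3, 4 in v2 and 1 in v1, and the 5 markers had medians of 26.8%, 43.7% and 22.04% covered. The part that such cells play in the peaks of Scn10a, Scn11a and Scn4a was not tested.

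By peaks per 10 kb in the 3 libraries, the protein-coding gene most like each channel gene was Map3k7 for Scn8a, Focad for Scn3a, Zc2hc1a for Scn1a, Ikzf2 for Scn9a, Tcea3 for Scn4a, Lama1 for Scn7a, Dnah14 for Scn10a and Lrmda for Scn11a, among 9701 candidates. Likeness was the distance of the log2 values over 3 libraries, from 0.019 for Scn1a to 0.14 for Scn10a. Among these candidates, 461 and 513 genes lay within a distance of 0.2 of Scn8a and Scn1a, while 4 came that near to Scn9a, 4 to Scn10a and 3 to Scn7a. Candidates had at least 30 peaks over the 3 libraries, which a sparse gene reaches only in a long window. These counts therefore cannot show how common a pattern is among all genes.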

How the data were processed

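The authors deposited 1 list of peaks per library, with chromosome, start, end and a name that repeats the position; no score, count or height is given. The build was mm10, with ArchR and MACS2 among the tools, per the submitters' processing notes. Their roles and versions, the aligner and the calling threshold are unstated in the sources used here. No listed peak is under 500 bp. Gene spans and start windows came from RefSeq tables of GRCm38.p6, the same build, and coordinates are 1-based. A peak counted in a window with an overlap of at least 1 bp. Share ratios carry exact conditional binomial intervals, other shares Clopper-Pearson intervals, and numbers of peaks exact Poisson intervals. The log2 ratios used a pseudocount of 0.5 peaks scaled to library size. Regions are the 3 lists merged by overlap. Counting was tested on simulated peaks. Python 3.11, scipy 1.17.1 and pandas 2.3.3 were used. The genes named are all 8 members, fixed lists of partners, relatives and markers, and the gene nearest in peak density to each member. Members and lists were chosen with earlier results of these data known. The alternatives tried are listed in the closing section. One gene of the partner list is not reported here.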

Additional observations from a re-analysis of the deposited data

How the results depend on the processing

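The alternatives were no flank, a 20 kb flank, the peak midpoint in the window, peaks wider than 500 bp, covered length, a pseudocount of 1 peak, 2-fold calls, 1 kb around starts and regions covered to at least 50% in each library. No leave-out of replicates was possible with 1 library per version. Of 83 recomputed summary values, 62 stayed within counting error or within 1.5 times. Among peaks wider than 500 bp, the pooled density was 1.55 peaks per 10 kb in v3, 1.92 in v2 and 1.39 in v1, against 2.44, 4.32 and 3.56 with all peaks, since fewer peaks were counted. As covered length the member windows stood at 25.5% in v3, 34.45% in v2 and 26.3% in v1. The median log2 share ratio of v3 over v1, -0.20 with all peaks, was 0.058 among the wider peaks. That of v3 over v2, -0.09 with all peaks, was 0.080 among the wider peaks. Genes past 1.5-fold and lower in v3 than in v2 numbered 3, but 1 with the 20 kb flank and 0 among wider peaks or at 2-fold. Higher in v3 than in v1 were 2 among wider peaks and 0 at 2-fold, and lower were 2 by covered length. Higher in v2 than in v1 were 2 by covered length, 2 among wider peaks and 0 at 2-fold, and lower was 1 among wider peaks. The 2 higher genes among wider peaks were Scn10a at 2.09 and Scn11a at 2.20, without Scn4a at 1.08. For Scn11a the v3 over v1 ratio among wider peaks was 1.69. With all peaks its ratios were 0.951 for v2 over v1 and 0.973 for v3 over v1. With the peak midpoint required inside the 300 bp start window, 2 genes had a start peak in v3, 1 in v2 and 3 in v1. Regions found in all libraries were 34.2% with 50% covered in each. The Scn7a ratio of v3 over v2 was 1.12 among wider peaks, against 0.650 with all peaks, and the cause was not tested. Depth is unknown and limits how absent peaks can be read.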
